A study of Mus musculus with 8 samples.

Results

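The NK and cytotoxic lymphocyte genes described here are Il2rb, Nkg7, Gzma, Gzmb, Prf1, Ncr1, Klrk1, Eomes, Tbx21 and Ifng, 10 of the 25239 gene symbols counted in livers of CDA-HFD–fed mice. They were chosen by name, with earlier results of these data known, as genes that natural killer (NK) cells and killer T cells use to kill and to signal. Bulk RNA-Seq was performed on whole liver of 4 control mice and 4 Smo-KO mice, 1 library per mouse. All 8 were adult male Smo flox/flox mice on a C57Bl6/J background, that is, both groups carried the same floxed allele of Smo, the signal transducer of the Hedgehog pathway. All were fed the CDA-HFD, a choline-deficient, amino acid–defined high-fat diet that causes steatohepatitis, for 6 weeks. At 1 week before sacrifice, control mice received AAV8-TBG-Luciferase and Smo-KO mice AAV8-TBG-Cre Recombinase by tail vein. The TBG promoter is active in hepatocytes, so the deletion was directed to hepatocytes and not to the lymphocytes that carry the transcripts described here. The labels call the genotype of the control mice WT, although the study's design gives the same floxed strain for both groups. No chow-fed or uninjected livers were analysed here, so the CDA-HFD and a viral vector are shared by every value below.

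NK cells, type 1 innate lymphoid cells (ILC1) and CD8 T cells all use these genes, and the mouse liver is rich in the first 2 kinds of cell. Interleukin-15, presented by neighbouring cells on its own receptor chain, binds the IL-2 receptor beta chain encoded by Il2rb together with the common gamma chain and keeps NK cells alive through STAT5. The transcription factors T-bet (Tbx21) and EOMES switch on the killing machinery, activating receptors such as NKp46 (Ncr1) and NKG2D (Klrk1) recognize stressed cells, perforin (Prf1) opens the target's membrane, granzymes (Gzma, Gzmb) enter and start its death, and interferon gamma (Ifng) is secreted to act on macrophages and hepatocytes. In whole liver these cells are a minority, so each gene is carried by few reads.

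All members are protein coding and were placed on the genome by GENCODE M21 on GRCm38, the build that the submitters' processing notes name. The IL-2 receptor chain Il2rb lies at chr15:78479256-78495271 on the minus strand. The receptors Ncr1 and Klrk1 lie at chr7:4337724-4345164 on the plus strand and at chr6:129610323-129623864 on the minus strand. Of the granule genes, Nkg7 lies at chr7:43437073-43438249 (plus), Prf1 at chr10:61297833-61304680 (plus), Gzma at chr13:113093825-113100981 (minus) and Gzmb at chr14:56258838-56262260 (minus). The T-box genes Eomes and Tbx21 lie at chr9:118478212-118486132 (plus) and chr11:97098071-97115331 (minus), and Ifng at chr10:118441046-118445892 (plus). An antisense gene, Gm33460, shares 118 bases, 2.84%, of the exons of Eomes, and a gene on the same strand, Gm49751, shares 336 bases, 25.9%, of those of Ifng. The sources used here do not say whether counting used strand, so reads in those stretches cannot be assigned with certainty.

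The promoters of the members share letters that the choice of genes did not use. RefSeq sequences of GRCm38.p6, from 250 bases before to 50 bases after each transcription start, were found for 9 of the 10 members, all but Il2rb. The core letters bound by RUNX factors, TGTGGT or their reverse complement ACCACA, stood in the windows of 6 of these 9 (Klrk1, Ncr1, Nkg7, Prf1, Gzma and Gzmb) and in 16.7% of all 32544 promoter windows. Both kinds of effector gene, receptors and granule proteins, were among the 6, and neither T-box gene nor Ifng was. A letter string of T-box factors, GGTGTG or CACACC, which can overlap the RUNX letters, stood in the window of 1 member, Nkg7, and in 19.0% of all windows. The STAT spacing TTCNNNGAA stood in 3 of the 9 windows (Nkg7, Gzmb and Ifng) and in 8.33% of all, the ETS letters GGAAGT or ACTTCC in 2 (Prf1 and Tbx21) and in 23.7% of all, and TATAAA or TTTATA in 1 (Ifng) and in 13.6% of all. Of the 6 promoters with RUNX letters, 4 (1 receptor and the granule proteins that act together in killing) are printed below over the 250 bases before the start, 5′ to 3′ on the gene's own strand, with the RUNX letters in capitals. They lie at chr7:4337465-4337714 (Ncr1, plus), chr10:61297586-61297835 (Prf1, plus), chr14:56262335-56262584 (Gzmb, minus) and chr13:113100982-113101231 (Gzma, minus).
Ncr1: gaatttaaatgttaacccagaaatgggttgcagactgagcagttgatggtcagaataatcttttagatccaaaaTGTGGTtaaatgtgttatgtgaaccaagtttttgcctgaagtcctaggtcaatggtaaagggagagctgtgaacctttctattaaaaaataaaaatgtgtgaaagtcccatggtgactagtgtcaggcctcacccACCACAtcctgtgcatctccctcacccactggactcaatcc
Prf1: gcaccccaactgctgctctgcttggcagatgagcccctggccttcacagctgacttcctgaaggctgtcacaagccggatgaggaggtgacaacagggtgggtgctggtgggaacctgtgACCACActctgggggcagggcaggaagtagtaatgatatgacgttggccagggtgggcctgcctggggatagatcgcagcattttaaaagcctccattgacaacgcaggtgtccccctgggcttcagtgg
Gzmb: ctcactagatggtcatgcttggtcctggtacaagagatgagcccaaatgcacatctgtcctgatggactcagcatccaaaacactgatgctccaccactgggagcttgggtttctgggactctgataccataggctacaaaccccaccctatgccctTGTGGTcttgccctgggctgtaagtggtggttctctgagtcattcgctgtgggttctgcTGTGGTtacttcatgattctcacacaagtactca
Gzma: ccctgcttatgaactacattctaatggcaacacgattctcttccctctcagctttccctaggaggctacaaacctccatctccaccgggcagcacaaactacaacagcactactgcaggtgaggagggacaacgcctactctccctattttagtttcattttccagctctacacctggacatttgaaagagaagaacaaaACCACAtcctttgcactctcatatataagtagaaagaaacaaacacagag
In Ncr1 the letters occur on both strands, with first bases 176 and 41 bases before the start printed here, and RefSeq lists another Ncr1 start from which they lie 185 and 50 bases away. In Gzmb they occur in the same orientation 93 and 34 bases before it. Prf1 and Gzma hold 1 match each, both as ACCACA, 130 and 50 bases before the start. A match of 6 letters describes the sequence and does not show that a factor is bound there.

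The depth of the libraries sets what can be seen of such rare transcripts. Reads on genes numbered 9177277, 9394970, 9891102 and 9999732 in control mice 1 to 4 and 9543675, 9367795, 8203299 and 9445427 in Smo-KO mice 1 to 4. All 10 members together took 316, 444, 358 and 449 of these reads in the control livers and 201, 155, 233 and 230 in the Smo-KO livers. Levels are given below as CPM, the reads of a gene per standard library total, with library sizes scaled by TMM. A count of 3 reads, the limit that a count of 0 allows, corresponded to between 0.297 and 0.366 CPM. Of the 10 members, 6 passed edgeR's filter on low counts and were tested (Il2rb, Nkg7, Gzmb, Prf1, Klrk1 and Eomes), and 4 did not (Gzma, Ncr1, Tbx21 and Ifng). All 6 tested members other than Prf1 had 10 or more reads in every liver, whereas Prf1 had fewer than 10 in 2 Smo-KO livers.

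Smo was first examined as a check of the groups. It had 72, 81, 88 and 83 reads in the control livers and 55, 36, 35 and 41 in the Smo-KO livers, so that no Smo-KO liver reached the lowest control. The mean level was 8.40 ± 0.270 CPM in control livers and 4.56 ± 0.765 CPM in Smo-KO livers (mean ± SD of 4 livers each, p = 0.0286 in a two-sided exact permutation test, the smallest that 4 against 4 mice allow). edgeR's quasi-likelihood test gave a log2 fold change of −0.88 (SE 0.16) with an adjusted p of 0.0957. Counts cover the whole gene, including parts outside the floxed stretch, and all cells of the liver.

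All 10 members had a lower mean level in Smo-KO livers than in control livers. Summed over the members, the control livers held 35.8, 46.6, 35.6 and 44.4 CPM and the Smo-KO livers 20.7, 16.9, 28.4 and 24.5 CPM, each in the order of mice 1 to 4. The highest Smo-KO sum lay below the lowest control sum, and the Smo-KO mean of 22.6 ± 4.95 CPM was 55.8% of the control mean of 40.6 ± 5.71 CPM. Without Il2rb, the member with the lowest p, the sum was 60.6% of control. The 2 most abundant members, Nkg7 and Il2rb, made up between 28.2% and 42.1% and between 21.2% and 30.4% of the members' reads in control livers, so they weigh most in these sums. In bulk liver, fewer cells that carry these transcripts and less of the transcripts in each cell cannot be told apart.

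In edgeR's test across 12977 genes, no member had a Benjamini-Hochberg adjusted p under 0.05, and neither did any other gene (0%). At an unadjusted p under 0.05, 4 of the 6 tested members were lower in Smo-KO livers (Il2rb, Nkg7, Eomes and Prf1) and none was higher, where 7.15% of all genes tested were lower, 6.70% higher and 13.8% either at that threshold. Prf1 had fewer than 10 reads in 2 Smo-KO livers and needed control livers, where its mean was higher, to pass the filter. No conclusion is therefore drawn from its call. In the fit that required 10 counts in every liver, 3 of 5 members were lower (Il2rb, Nkg7 and Eomes), where 6.93% of genes were lower. The groups did not overlap, with every Smo-KO liver below every control liver, for 4 of the 10 members (Il2rb, Gzma, Ncr1 and Eomes), 2 of them among the 6 tested. The same was true of 4.34% of the genes tested (3.03% lay apart in the other direction and 7.37% in either) and of 3.31% of all 18284 genes with a read. The median log2 fold change was −0.76 over the 6 tested members and −0.000845 over all genes tested, of which 50.1% had a value below 0. DESeq2's Wald test, run as an alternative, gave an adjusted p under 0.05 for Il2rb and Nkg7, and for 0.702% of genes in the same direction (1.36% in either). Without a filter on low counts, edgeR's adjusted p was 0.0199 for Il2rb, with 0.334% of 18284 genes under 0.05, and 6 of all 10 members were lower at an unadjusted p under 0.05, where 5.76% of genes were lower and 11.4% either.

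**Figure D1:**
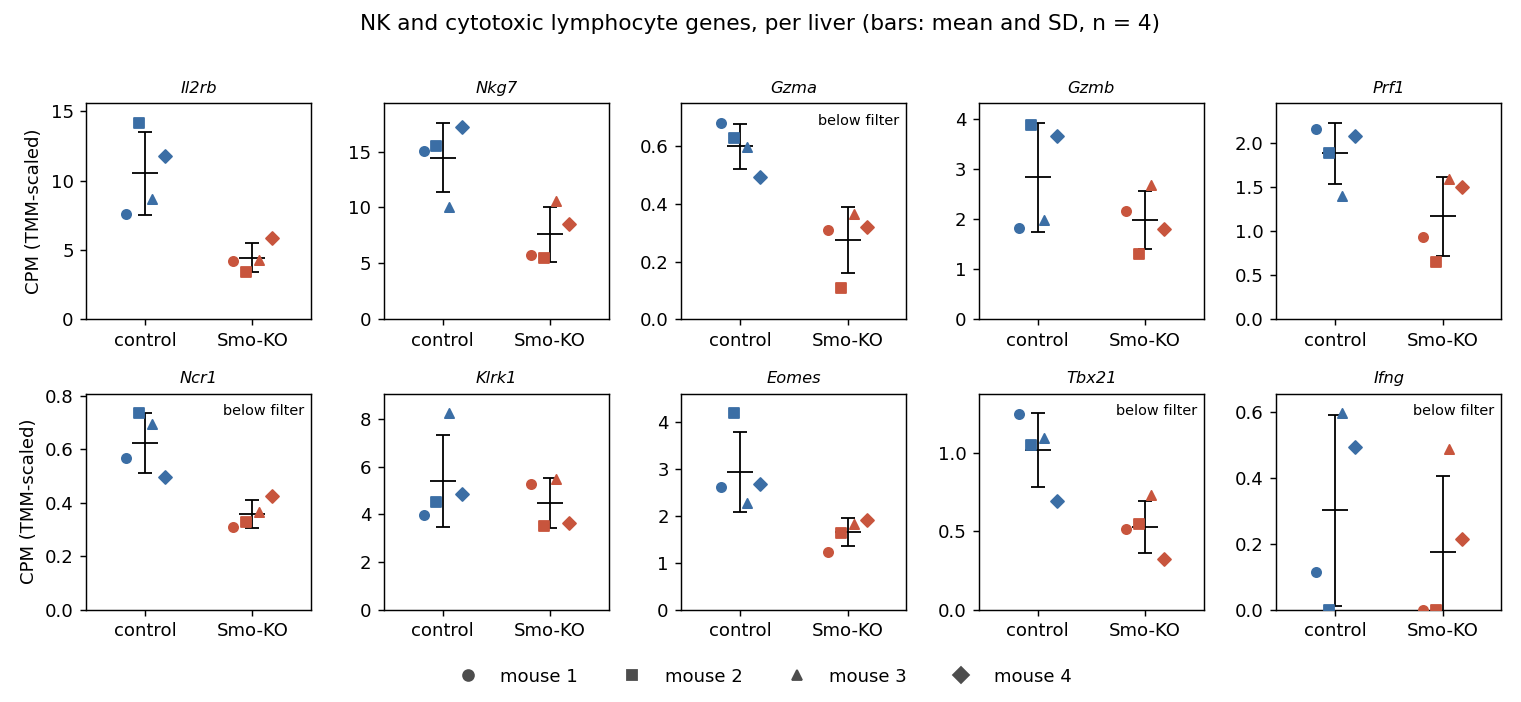
Level of each of the 10 genes in each liver, in TMM-scaled CPM on linear axes that start at 0 and differ between panels, with 4 control livers in blue and 4 Smo-KO livers in red. Symbols give the mouse number, bars the mean and SD, and genes marked "below filter" were not tested. The groups are apart for Il2rb, Gzma, Ncr1 and Eomes, and overlap for the other 6 genes.

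Il2rb, the receptor chain through which IL-15 and IL-2 act, had the lowest p among the members tested. It had 67, 135, 87 and 119 reads in control livers and 41, 31, 35 and 55 in Smo-KO livers. Every Smo-KO liver was below every control liver, and the coefficient of variation between livers was 28.4% in control and 23.4% in Smo-KO livers. The mean was 10.5 ± 2.99 CPM in control and 4.44 ± 1.04 CPM in Smo-KO livers, or 42.1% of control (mean ± SD of 4 livers each, p = 0.0286 in a two-sided exact permutation test). edgeR's log2 fold change was −1.25 (SE 0.23), with an unadjusted p of 0.000111, which ranked 15th among all genes tested, and an adjusted p of 0.0957. DESeq2 gave an adjusted p of 0.000362.

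The other members that act at the cell surface are activating receptors. Ncr1 encodes NKp46, the receptor most specific to NK cells and ILC1 among the members. It had 5, 7, 7 and 5 reads in control livers and 3, 3, 3 and 4 in Smo-KO livers. The groups did not overlap (exact permutation test, two-sided p = 0.0286, n = 4 each), but only 24 and 13 reads stood behind the means of 0.623 ± 0.111 and 0.357 ± 0.0518 CPM. The ratio of the pooled counts was 0.573, with an exact 95% interval of 0.268 to 1.17 that covers counting error only, and in edgeR's fit without a filter the log2 fold change was −0.78 (SE 0.46, unadjusted p = 0.106).

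Klrk1 encodes NKG2D, which CD8 T cells carry as well as NK cells. It had 35, 43, 83 and 49 reads in control livers and 51, 32, 45 and 34 in Smo-KO livers. The ranges overlapped, and control 3 stood above all other livers. Its mean level was 5.39 ± 1.94 CPM in control and 4.47 ± 1.05 CPM in Smo-KO livers, with a log2 fold change of −0.28 (SE 0.25, edgeR adjusted p = 0.659). Without control 3 the log2 fold change was 0.0054, so the lower mean of Klrk1 rested on that liver.

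Among the granule genes, Nkg7 was the most abundant. It encodes a granule membrane protein needed for full release of the killing granules of NK cells and CD8 T cells. It had 133, 148, 101 and 174 reads in control livers and 56, 50, 87 and 80 in Smo-KO livers. Control 3 was the lowest control, and Smo-KO 3, in the smallest library, passed it on the CPM scale at 10.6 against 10.04, which is the only overlap between the groups. The mean was 14.5 ± 3.09 CPM in control livers and 7.59 ± 2.44 CPM in Smo-KO livers, or 52.5% of control (mean ± SD of 4 livers each, p = 0.0571 in a two-sided exact permutation test). edgeR's log2 fold change was −0.94 (SE 0.22, unadjusted p = 0.00106, adjusted p = 0.140), and DESeq2's adjusted p was 0.0121.

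Perforin and the granzymes were counted far less often. Prf1, which encodes perforin, had 19, 18, 14 and 21 reads in control livers and 9, 6, 13 and 14 in Smo-KO livers. The mean levels were 1.88 ± 0.343 and 1.17 ± 0.448 CPM, with a log2 fold change of −0.69 (SE 0.31, edgeR unadjusted p = 0.0452, adjusted p = 0.347). Smo-KO mice 1 and 2 lay below all controls, whereas Smo-KO mice 3 and 4 lay above control 3. This call was lost when control 1, control 2, control 4, Smo-KO 1 or Smo-KO 2 was left out (edgeR unadjusted p between 0.0739 and 0.132), and also in DESeq2 (unadjusted p = 0.0870) and with the replicate number as a block (0.0626).

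Gzma and Gzmb encode the 2 main granzymes, proteases that enter the target cell through perforin pores. Gzma had 6, 6, 6 and 5 reads in control livers and 3, 1, 3 and 3 in Smo-KO livers. The groups did not overlap (exact permutation test, two-sided p = 0.0286, n = 4 each), at means of 0.6001 ± 0.0784 and 0.276 ± 0.114 CPM, close to the level of 3 reads in Smo-KO livers. The ratio of pooled counts was 0.460 with an exact 95% interval of 0.195 to 1.00, again for counting error only, and the log2 fold change without a filter was −1.09 (SE 0.51, edgeR unadjusted p = 0.0455, adjusted p = 0.421). Gzmb had 16, 37, 20 and 37 reads in control livers and 21, 12, 22 and 17 in Smo-KO livers. Controls 2 and 4 were high, and controls 1 and 3 lay within the range of the Smo-KO livers. Its means of 2.84 ± 1.09 and 1.99 ± 0.579 CPM gave a log2 fold change of −0.52 (SE 0.31, edgeR adjusted p = 0.485).

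The T-box transcription factors of NK cells were both lower in mean. Eomes, which marks mature NK cells and is low in ILC1, had 23, 40, 23 and 27 reads in control livers and 12, 15, 15 and 18 in Smo-KO livers. No Smo-KO liver reached a control, and control 2 was the highest. The means were 2.94 ± 0.853 and 1.66 ± 0.303 CPM (mean ± SD of 4 livers each, p = 0.0286 in a two-sided exact permutation test), with a log2 fold change of −0.83 (SE 0.26, edgeR unadjusted p = 0.00803, adjusted p = 0.220). Tbx21 encodes T-bet, which NK cells, ILC1 and type 1 T cells share, and it had 11, 10, 11 and 7 reads in control livers and 5, 5, 6 and 3 in Smo-KO livers. The groups met only between control 4, at 0.692 CPM, and Smo-KO 3, at 0.732 CPM. The means were 1.02 ± 0.235 and 0.528 ± 0.169 CPM (exact permutation test, two-sided p = 0.0571, n = 4 each), and the log2 fold change without a filter was −0.94 (SE 0.41, edgeR unadjusted p = 0.0325, adjusted p = 0.373).

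Ifng, the cytokine of the group, was at the limit of detection. It had 1, 0, 6 and 5 reads in control livers and 0, 0, 4 and 2 in Smo-KO livers. Most of the reads came from mice 3 and 4 of either group, and 3 of the 8 livers had none, which allows up to 0.327 CPM in the least deep of them. The ratio of pooled counts was 0.529 with an exact 95% interval of 0.163 to 1.52, so a difference was not detectable at this depth.

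**Figure D2:**
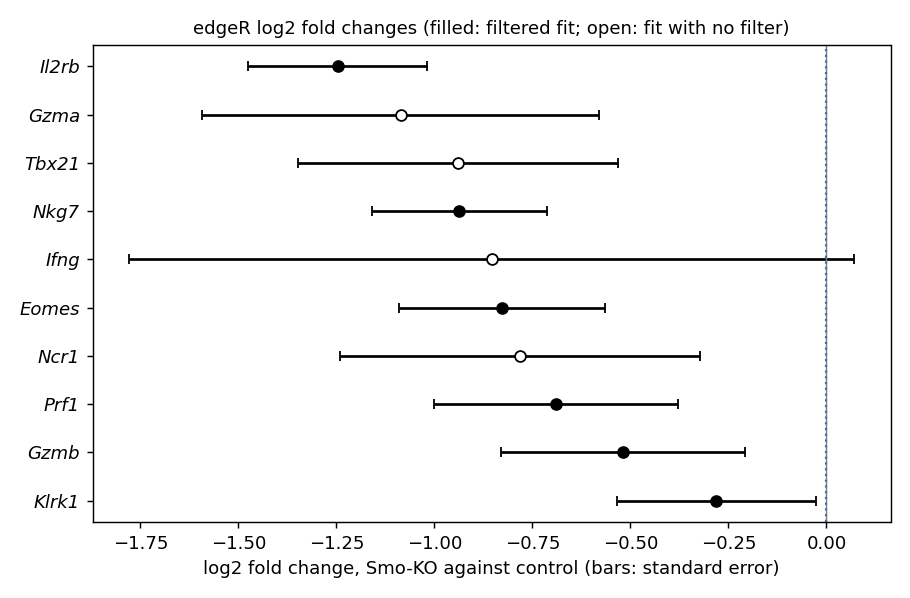
edgeR log2 fold change of each member, Smo-KO against control, with its standard error as a bar (n = 4 livers per group). Filled points are from the filtered fit and open points, for Gzma, Tbx21, Ifng and Ncr1, from the fit without a filter. All points lie below 0, from −1.25 for Il2rb to −0.28 for Klrk1, and the bar of Ifng is the widest.

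Ordered by level per kilobase of exon, so that genes can be compared, control livers had Nkg7 first at 15.8 ± 3.38 CPM per kb, then Il2rb at 2.46 ± 0.698 and Gzmb at 1.97 ± 0.756. Klrk1, Prf1, Eomes and Gzma followed at 0.751 ± 0.270, 0.727 ± 0.133, 0.708 ± 0.205 and 0.597 ± 0.0780 CPM per kb. Tbx21, Ncr1 and Ifng were lowest at 0.410 ± 0.0943, 0.404 ± 0.0723 and 0.233 ± 0.223 CPM per kb. Nkg7 stood clear of all others. Il2rb and Gzmb, the 4 genes from Klrk1 to Gzma, and Tbx21, Ncr1 and Ifng lay within the SD between livers of their neighbours. These SDs ignore that all genes were measured in the same livers, and the order of genes within each liver was not tested. In Smo-KO livers Nkg7 was again first, at 8.31 ± 2.67 CPM per kb, and Gzmb at 1.39 ± 0.403 stood above Il2rb at 1.04 ± 0.242, with ranges that the spread does not separate.

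The livers of a group differed from each other in the members as a set. Smo-KO 2 was the lowest of its group for 7 of the 10 members, for Ifng in a tie with Smo-KO 1 at 0 reads, and lay below the lowest control for 9. Smo-KO 3 was the highest of its group for 7 members and lay below the lowest control for 4. Smo-KO 1 and Smo-KO 4 lay below the lowest control for 7 and 8 members. Smo-KO 3 is also the library with the fewest reads, and whether its depth bears on its values was not tested. In the fit without Smo-KO 3, 7 members passed the filter. The 4 named above, with the same limit for Prf1, were lower at an unadjusted p under 0.05, where 5.07% of the genes in that fit were lower. The summed level was 51.0% of control. Tbx21 was also called lower in that fit. It had fewer than 10 reads in every Smo-KO liver and passed the filter only through control livers, where it was higher. No conclusion is therefore drawn from its call. Without Smo-KO 2 the sum was 60.5% of control.

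The label of the group was checked against other genes of the same cells. Of 32 other receptors of NK cells, 10 passed the filter, and Klra3, Klra4, Klra6, Klra8, Klra10 and Klri2 had no read in any liver. Klrb1c, which encodes the NK1.1 antigen used to identify NK cells in C57Bl6 mice, had 7 reads in the control livers together and 7 in the Smo-KO livers. Klre1 had 5, 6, 14 and 10 reads in control and 7, 5, 6 and 4 in Smo-KO livers. A gene at 0 in these files need not be silent, since Ass1, an abundant hepatocyte enzyme, had 1 read in all 8 livers, and whether reads of near-identical copies, as among the Klra genes, were lost in counting was not tested. Klrd1, which encodes CD94 and is found on NK cells and some T cells, had 14, 35, 36 and 37 reads in control and 9, 20, 19 and 27 in Smo-KO livers, with overlapping CPM (log2 fold change −0.60, SE 0.34, edgeR unadjusted p = 0.0960). With the replicate number as a block, the edgeR unadjusted p of Klrd1 was 0.0231. Several genes of NK cells were thus at 0 or at few reads in both groups, and the members with most reads, Nkg7, Il2rb and Klrk1, are shared with T cells.

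Among the tested NK receptors, 2 were lower and 1 was higher in Smo-KO livers at an unadjusted p under 0.05, and the median log2 fold change was −0.44. Of all genes tested, 7.15% were lower and 6.70% higher at that threshold, and these shares apply to every list below. Tigit, an inhibitory receptor of NK and T cells, had 49, 40, 20 and 40 reads in control livers and 13, 11, 18 and 15 in Smo-KO livers, with a log2 fold change of −1.30 (SE 0.32, edgeR adjusted p = 0.146). All 4 Smo-KO livers lay below 3 of the 4 controls. Slamf7, an activating receptor also found on other leucocytes, had 37, 45, 50 and 40 reads in control and 20, 14, 37 and 26 in Smo-KO livers (log2 fold change −0.73, SE 0.28, edgeR adjusted p = 0.281). Its unadjusted call was lost without control 3, Smo-KO 1 or Smo-KO 2 (edgeR p up to 0.0632). Fcgr3, the Fc receptor CD16, was higher at a log2 fold change of 0.29 (SE 0.11, edgeR adjusted p = 0.266), a call lost without control 2 or Smo-KO 3 (p up to 0.0531), and Tyrobp, the adaptor DAP12 and the most abundant gene of the list, was at 115 ± 10.6 CPM in control and 127 ± 12.8 CPM in Smo-KO livers. Fcgr3, Fcer1g and Tyrobp are also made by macrophages and took most of the list's summed level, which was 109% of control. They were also the only tested receptors with a log2 fold change above 0. Without these 3, a choice made after the values were seen that by itself lowers the result, the sum of the remaining 29 was 66.8% of control.

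T cells carry many of the members too, so their own genes were counted beside them. Of 24 T cell genes, 21 were in the files under these symbols and tested. At an unadjusted p under 0.05, 17 of these were lower and 1 was higher in Smo-KO livers, where 7.15% of all genes tested were lower and 6.70% higher. The median log2 fold change of the T cell genes was −0.76. Their summed level was 125, 118, 113 and 142 CPM in control livers and 85.3, 82.8, 101 and 101 CPM in Smo-KO livers. The groups did not overlap, and the Smo-KO mean was 74.4% of control. None of the 21 was at 0. Cd8a, the co-receptor of killer T cells, had 97, 90, 96 and 96 reads in control and 53, 41, 51 and 66 in Smo-KO livers (log2 fold change −0.77, SE 0.16, edgeR adjusted p = 0.116), and Cd3e, part of the T cell receptor complex, 71, 65, 69 and 112 against 42, 17, 44 and 48 reads (log2 fold change −0.98, SE 0.27, adjusted p = 0.176). Cd247, the zeta chain that the T cell receptor shares with NKp46 and CD16, had 19, 26, 32 and 41 reads in control and 9, 8, 13 and 14 in Smo-KO livers (log2 fold change −1.32, SE 0.29, edgeR adjusted p = 0.126). Ctla4, an inhibitory receptor of T cells, was lower at a log2 fold change of −1.19 (SE 0.29, adjusted p = 0.143 by edgeR). Zap70, the most abundant gene of the list, was at 21.9 ± 2.79 CPM in control and 17.5 ± 3.22 CPM in Smo-KO livers, and its unadjusted call was lost without any 1 liver but control 2 and Smo-KO 4 (edgeR p up to 0.145). Themis, a signalling adaptor of developing T cells, went the other way, with 96, 112, 92 and 133 reads in control and 152, 238, 207 and 192 in Smo-KO livers (log2 fold change 0.96, SE 0.17, edgeR adjusted p = 0.0957). How much of the members' difference came with the T cell genes was not tested. The ratio of the members' summed level to that of the T cell genes was 0.328 ± 0.0463 in control and 0.243 ± 0.0320 in Smo-KO livers, and the lowest control, at 0.287, lay just above the highest Smo-KO liver, at 0.282. The T cell sum includes Themis, at 11.2 ± 1.68 CPM in control and 21.8 ± 4.78 CPM in Smo-KO livers, which lowers the ratio in Smo-KO livers. Whether the groups stay apart without Themis was not tested, so no conclusion is drawn from this separation.

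Genes that all leucocytes carry had similar means in both groups. The 10 pan-leucocyte genes, among them Lcp1, the most abundant, and Ptprc, which encodes CD45, had a median log2 fold change of −0.01, with none called in either direction, and their summed level in Smo-KO livers was 98.3% of control. Ptprc was at 66.3 ± 13.01 CPM in control and 66.1 ± 7.09 CPM in Smo-KO livers. Relative to the pan-leucocyte genes, the members' summed level was 0.0549 ± 0.00768 in control and 0.0309 ± 0.00542 in Smo-KO livers, without overlap. The 12 macrophage genes summed to 104% of control, with Trem2 and Lyz2 higher at log2 fold changes of 0.75 (SE 0.13, edgeR adjusted p = 0.0957) and 0.31 (SE 0.10, adjusted p = 0.219) and Cd5l, the most abundant, at −0.07 (SE 0.18). Dendritic cell genes summed to 104% of control, with Ccr7 the 1 gene of 9 that was lower at an unadjusted p under 0.05 (log2 fold change −0.63, SE 0.23, lost without control 2 or Smo-KO 4, edgeR p up to 0.0615) and Itgax the most abundant. Neutrophil genes summed to 106%, with none of the 3 tested called, Csf3r the most abundant and Ly6g at 0. B cell and plasma cell genes summed to 62.5% with overlapping groups, which rested on Jchain, the joining chain of secreted antibodies, at 29, 41, 248 and 143 reads in control and 33, 15, 25 and 24 in Smo-KO livers. Hepatocyte genes summed to 98.1%, with Alb the most abundant and Cps1, a urea cycle enzyme, the 1 of 9 lower at an unadjusted p under 0.05 (log2 fold change −0.33, SE 0.10). Endothelial genes summed to 82.9% with overlapping groups and a log2 fold change of −0.50 (SE 0.20) for Pecam1, called unless control 3, Smo-KO 2 or Smo-KO 3 was left out (edgeR p up to 0.0753), and of −0.26 (SE 0.20) for Clec4g, and Mylpf, the 1 skeletal muscle gene tested, had a log2 fold change of 0.22 (SE 0.35). Shares called in either direction were 16.7% for macrophage genes, 14.3% for B cell and endothelial genes and 11.1% for dendritic cell and hepatocyte genes. All lay near the 13.8% of all genes tested.

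**Figure D3:**
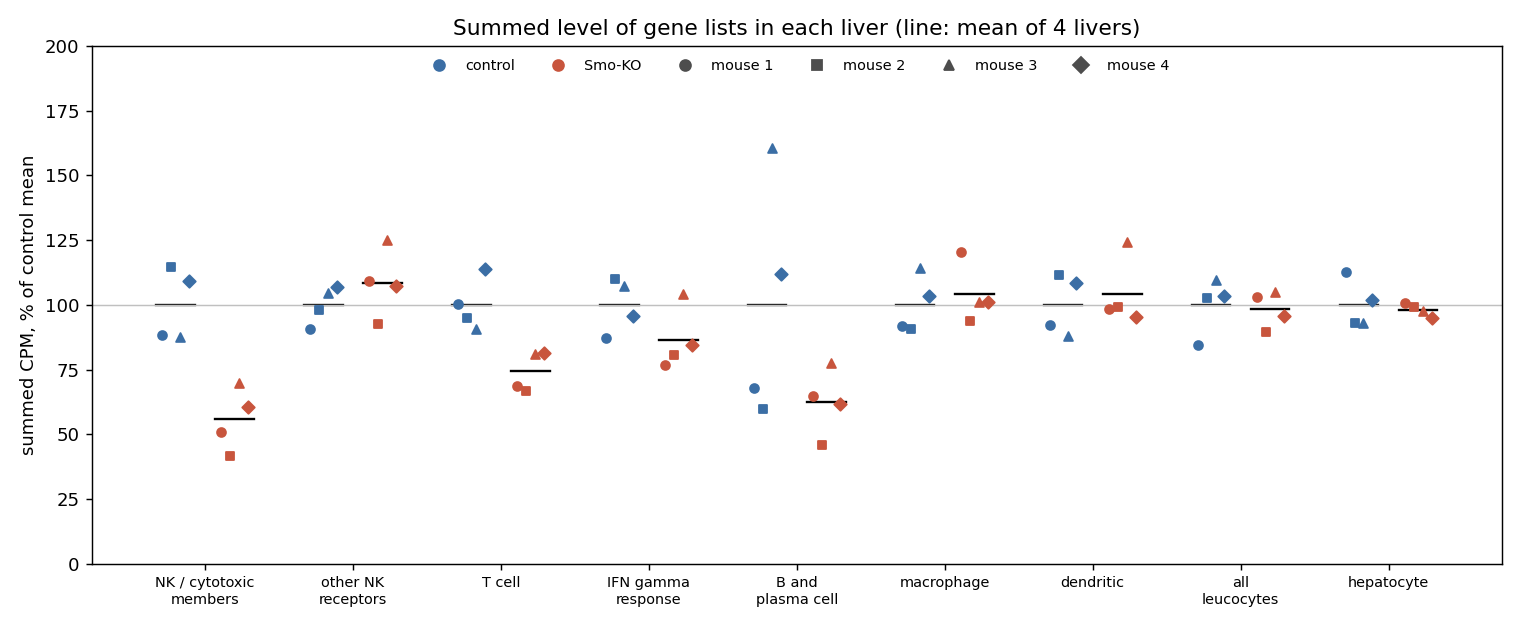
Summed CPM of each gene list in each liver, as a percent of the control mean of that list, on a linear axis from 0. Blue symbols are control livers, red symbols Smo-KO livers, symbol shapes mouse numbers and black lines group means. The members and the T cell genes are the lists whose groups do not overlap, and the pan-leucocyte, macrophage and hepatocyte lists stay near 100%.

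Ligand and signalling genes upstream of the members were compared next. Of 19 genes of IL-2 and IL-15 signalling, 17 were tested, 3 were lower and 2 higher in Smo-KO livers at an unadjusted p under 0.05, and the median log2 fold change was 0.07. The share called in either direction was 29.4%, against 13.8% of all genes tested. Il15 itself was at 6.13 ± 1.03 CPM in control and 6.15 ± 0.992 CPM in Smo-KO livers, and Il2 had no read. Il15ra, the chain that presents IL-15, was at 37.8 ± 7.42 CPM in control and 46.1 ± 8.19 CPM in Smo-KO livers (edgeR unadjusted p = 0.0864). Il2rg, the common gamma chain that pairs with the Il2rb product, had 132, 194, 226 and 192 reads in control and 143, 129, 95 and 105 in Smo-KO livers. On the CPM scale its groups did not overlap (19.2 ± 3.15 and 12.9 ± 1.77 CPM, log2 fold change −0.57, SE 0.15, edgeR adjusted p = 0.152). Socs1, an inhibitor of cytokine and interferon signalling, had 41, 113, 109 and 71 reads in control and 36, 24, 43 and 26 in Smo-KO livers (log2 fold change −1.27, SE 0.30, edgeR adjusted p = 0.140). Socs2 and Cish, STAT5 targets that hepatocytes also make in response to growth hormone, were higher at log2 fold changes of 1.78 (SE 0.56) and 1.24 (SE 0.42), with edgeR adjusted p-values of 0.215 and 0.241. Smo-KO 3 had 587 reads of Socs2 against at most 126 in any other liver, and without it the log2 fold change of Socs2 was 0.66 and that of Cish 0.86 (edgeR unadjusted p = 0.0510). Mcl1, the survival factor of NK cells that other cells also express, was the most abundant of this list and was at 244 ± 9.15 and 263 ± 17.0 CPM.

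IL-12 and IL-18 drive interferon gamma in NK cells. Of 15 genes of these pathways 9 were tested, 2 were lower and none higher at an unadjusted p under 0.05, and the median log2 fold change was −0.05. That is 22.2% called, against 13.8% of all genes tested in either direction. Il18bp, the decoy that binds IL-18, had 510, 580, 724 and 759 reads in control and 521, 389, 412 and 450 in Smo-KO livers, and the CPM of the groups did not overlap (log2 fold change −0.45, SE 0.11, edgeR adjusted p = 0.146). Il18r1, a chain of the IL-18 receptor, lay below the filter, with 13, 9, 13 and 12 reads in control and 6, 6, 5 and 3 in Smo-KO livers. Its groups did not overlap (exact permutation test, two-sided p = 0.0286, n = 4 each), and its log2 fold change without a filter was −1.13 (SE 0.38, edgeR adjusted p = 0.237). Stat4, the transducer of IL-12, had 9, 26, 21 and 22 reads in control and 9, 7, 8 and 16 in Smo-KO livers (log2 fold change −0.87, SE 0.35, edgeR adjusted p = 0.297). The unadjusted call of Stat4 was lost without control 2, control 4, Smo-KO 1, Smo-KO 2 or Smo-KO 3 (edgeR p up to 0.0890).

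Although Ifng itself could not be resolved, genes that respond to its product were abundant. All 20 interferon gamma receptor and response genes were tested, and 14 were lower and none was higher in Smo-KO livers at an unadjusted p under 0.05, with a median log2 fold change of −0.53. At that threshold 7.15% of all genes tested were lower and 6.70% higher. Cxcl9, a chemokine that draws NK and T cells, had 774, 1174, 1752 and 1724 reads against 391, 297, 740 and 264 (log2 fold change −1.55, SE 0.32, edgeR adjusted p = 0.116). Igtp, an immunity-related GTPase, and Ciita, the switch for MHC class II genes, had log2 fold changes of −1.11 (SE 0.23) and −0.89 (SE 0.19), both with an edgeR adjusted p of 0.116, and of these 3 genes the groups were apart for Ciita alone. B2m, the most abundant gene of the list, was at 2024 ± 64.6 and 2143 ± 238 CPM, and the sum over the list, which B2m dominates, was 86.6% of control with overlapping groups.

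Control 1 and Smo-KO 3 approached each other in these interferon genes. On the CPM scale, control 1 had the lowest control level of Igtp, Cxcl9 and Ciita, and Smo-KO 3 the highest Smo-KO level of each. Smo-KO 3 passed control 1 for Igtp, at 177 against 165 CPM, and for Cxcl9, at 90.3 against 87.8 CPM. Smo-KO 3 was also the Smo-KO liver with the highest summed level of the members, whereas control 1 and control 3 had the lowest sums among the controls.

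Among other transcription factors of NK and cytotoxic lymphocytes, 15 of 17 were tested, 2 were lower and 1 higher at an unadjusted p under 0.05, and the median log2 fold change was −0.15. The share called in either direction was 20%, against 13.8% of all genes tested. Ikzf3 (Aiolos) had 28, 46, 37 and 34 reads in control and 14, 12, 21 and 18 in Smo-KO livers (log2 fold change −1.06, SE 0.25, edgeR adjusted p = 0.140). Ikzf2 (Helios), found in regulatory T cells as well as in NK cells, had 19, 23, 16 and 30 reads in control and 6, 10, 8 and 14 in Smo-KO livers (log2 fold change −1.12, SE 0.31, edgeR adjusted p = 0.176). Neither gene's groups overlapped. Ikzf2 had fewer than 10 reads in Smo-KO 1 and Smo-KO 3 and needed control livers, where it was higher, to pass the filter. Hopx was higher at a log2 fold change of 0.42 (SE 0.19, edgeR adjusted p = 0.334), a call lost without control 1, control 2, control 3, Smo-KO 2 or Smo-KO 3 (edgeR p up to 0.180), and Id2, the most abundant factor of the list, was at 204.6 ± 18.3 and 189 ± 17.0 CPM. With the replicate number as a block, the call of Hopx was lost as well (edgeR unadjusted p = 0.0634). Runx3, a RUNX factor of NK and CD8 T cells, was at 3.07 ± 0.805 CPM in control and 2.92 ± 0.754 CPM in Smo-KO livers.

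Liver ILC1 and circulating NK cells are told apart by surface receptors, and the genes of neither kind went one way. Of the 9 tested, 5 had a log2 fold change below 0 and 4 above. Of 10 such genes 9 passed the filter, and 4 were lower and 1 higher at an unadjusted p under 0.05, with a median log2 fold change of −0.29. That is 55.6% called in either direction, against 13.8% of all genes tested. Cxcr6, which holds ILC1 and resident T cells in the liver, had 28, 49, 50 and 55 reads in control and 27, 25, 26 and 20 in Smo-KO livers. Its groups did not overlap on the CPM scale (4.68 ± 1.02 and 2.703 ± 0.429 CPM, log2 fold change −0.80, SE 0.22, edgeR adjusted p = 0.172). Among genes tied to circulating cells, Itga2 (CD49b) had 14, 33, 18 and 16 reads in control and 9, 14, 9 and 8 in Smo-KO livers (log2 fold change −0.93, SE 0.34, edgeR adjusted p = 0.266), a call lost without control 2 or Smo-KO 4 (edgeR p up to 0.0835). Itga2 also needed control livers, where it was higher, to pass the filter. Cx3cr1, the fractalkine receptor, which monocytes also carry, was the 1 higher gene at a log2 fold change of 0.47 (SE 0.17, edgeR adjusted p = 0.266), a call lost without control 1, control 3 or Smo-KO 3 (p up to 0.0710). Cd200r1, tied to ILC1, and Itgam and S1pr5, tied to circulating cells, had mean levels of 115%, 117% and 108% of control and were not called. S1pr1, which endothelial cells also express and which was the most abundant of the list, had a log2 fold change of −0.37 (SE 0.11, edgeR adjusted p = 0.204).

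The remaining genes of the cytotoxic granule and the secreted products of NK cells mostly had log2 fold changes below 0. Of 20 other granule and death ligand genes 11 were tested, 10 had a value below 0, 3 were lower and none higher at an unadjusted p under 0.05, and the median log2 fold change was −0.14. The share called was 27.3%, against 13.8% of all genes tested in either direction. Ctsw, a protease of NK and CD8 T cells, had 29, 38, 19 and 47 reads in control and 19, 24, 18 and 20 in Smo-KO livers (log2 fold change −0.63, SE 0.27, edgeR adjusted p = 0.330). Rab27a, which docks the granule at the membrane, and Tnfsf10, the death ligand TRAIL, had log2 fold changes of −0.59 (SE 0.24, edgeR adjusted p = 0.312) and −0.29 (SE 0.12, adjusted p = 0.294). Lamp1, a lysosomal protein of all cells and the most abundant gene of this list, was at 1118 ± 5.04 and 1117 ± 60.1 CPM. Leaving out 1 liver ended the unadjusted call of each, for Ctsw with any liver but control 3 and Smo-KO 2 (edgeR p up to 0.146), for Rab27a with control 2, control 4, Smo-KO 3 or Smo-KO 4 (p up to 0.0965) and for Tnfsf10 with control 2, control 3, Smo-KO 1 or Smo-KO 3 (p up to 0.102). Gzmd, Gzme, Gzmg and Gzmn had no read. Of 8 chemokines and cytokines of these cells 5 were tested, all 5 had a log2 fold change below 0, with a median of −0.37, and 2 were lower at an unadjusted p under 0.05, where 7.15% of all genes tested were lower. Tnf, which macrophages also make, had 37, 39, 51 and 37 reads in control and 33, 24, 30 and 33 in Smo-KO livers, and its CPM did not overlap, although control 4, at 3.660, was next to Smo-KO 3, at 3.659 (edgeR unadjusted p = 0.0782). Ccl5, stored by NK cells and memory CD8 T cells, had 356, 393, 336 and 468 reads in control and 199, 178, 304 and 324 in Smo-KO livers (log2 fold change −0.54, SE 0.19, edgeR adjusted p = 0.261), and Ccl4 a log2 fold change of −0.51 (SE 0.22, adjusted p = 0.330). The call of Ccl5 was lost without control 4, Smo-KO 1 or Smo-KO 2 (edgeR p up to 0.0562), and that of Ccl4 without control 2, control 3, Smo-KO 2 or Smo-KO 4 (p up to 0.125).

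Ligands that NK receptors bind on other cells mostly had higher means among the few that were tested. Of 14 ligand genes 5 were tested, 3 were higher and none lower at an unadjusted p under 0.05, and the median log2 fold change was 0.28. At that threshold 6.70% of all genes tested were higher. Nectin2, a ligand of the activating receptor DNAM-1 and of TIGIT, had 1042, 925, 1167 and 1053 reads in control and 1239, 1128, 1269 and 1160 in Smo-KO livers, and its CPM did not overlap between groups (log2 fold change 0.28, SE 0.10, edgeR adjusted p = 0.261). Pvr, which shares these receptors, had a log2 fold change of 0.34 (SE 0.14, edgeR adjusted p = 0.304), and Clec2d, which binds an inhibitory receptor of the Klrb1 family, one of 0.37 (SE 0.16, adjusted p = 0.324). Each call was lost when 1 liver was left out, for Nectin2 with control 2 or Smo-KO 3 (edgeR p up to 0.0625), for Pvr with control 3, control 4, Smo-KO 1 or Smo-KO 3 (p up to 0.0889) and for Clec2d with any liver but control 2, Smo-KO 1 and Smo-KO 2 (p up to 0.142). The Clec2d call was also lost with the replicate number as a block (edgeR unadjusted p = 0.0594). The Raet1 genes, ligands of the receptor encoded by Klrk1, had no read from Raet1a to Raet1e, and whether reads of these near-identical copies were lost in counting was not tested.

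**Figure D4:**
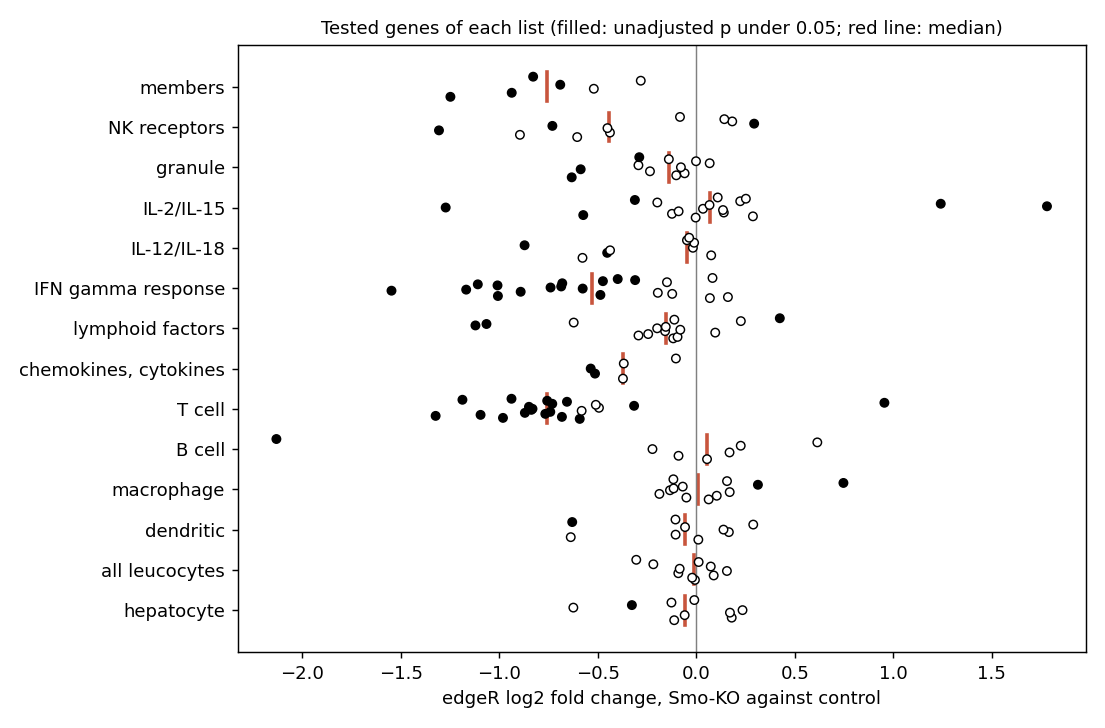
edgeR log2 fold change of every tested gene of each list, Smo-KO against control, 1 point per gene, filled where the unadjusted p was under 0.05, with the list's median as a red line. The medians of the members and of the T cell genes are both −0.76 and that of the interferon gamma response genes is −0.53, while those of the macrophage, pan-leucocyte and hepatocyte lists lie near 0.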

How the data were processed

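RNA of 8 livers, 4 control and 4 Smo-KO, was sequenced from libraries made with a kit not stated to keep strand, and each liver was taken as 1 mouse by its number in the labels. The authors deposited whole-number read counts per gene symbol, 1 file per liver, without normalization. The submitters' processing notes name fastp, STAR 2.7.5, featureCounts 2.0.1 and GRCm38, while the files end in closing lines of the form that htseq-count writes, and the annotation and counting options are not given in the sources used here. Those lines (reads on no feature, 7.56% to 9.68%, and ambiguous reads, 2.45% to 2.61%) were left out.

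The genotype effect was fitted to these counts with edgeR 4.0.16 under R 4.3.3, using filterByExpr, TMM scaling and the quasi-likelihood F test without covariates, with Benjamini-Hochberg adjustment over 12977 genes. Standard errors are those implied by the F statistic. Single values were compared in scipy 1.17.1 by two-sided exact permutation over all 70 ways to draw 4 mice from 8. CPM are counts over TMM-scaled library sizes, CPM per kb used the union of GENCODE M21 exons, and ratios of pooled counts have exact 95% binomial intervals. Intervals and the floor of 3 reads cover counting error only, since molecular identifiers are not stated. Figures were drawn with matplotlib 3.10.9. The procedure was tested on simulated counts.

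The members and gene lists were chosen with earlier results of these data known, so no list was tested as a set. Of each list, up to 4 tested genes with the lowest unadjusted p under 0.05 and the gene with the highest mean CPM were named. Results of 2 single genes that the rule names are not reported here, and all counts, medians and sums still include them. Outside this rule, Klrb1c, Klrd1, Klre1, Klri2 and the Klra genes, Cd3e, Ptprc, Il15, Il15ra, Il18r1, Tnf, Runx3, Cx3cr1, Cd200r1, Itgam, S1pr5, Ass1, Fcer1g and the genes under other observations were named after their values were seen. Zfp683, Trac, Trbc1, Trbc2 and Ighm were not found in the files under these symbols. Alternatives were edgeR's RLE size factors, library totals alone, DESeq2 1.42.0, no filter, a floor of 10 counts in each sample, a block for the replicate number and leaving out each mouse in turn. The counts of T cell and interferon gamma response genes under these alternatives were added after seeing the data.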

Additional observations from a re-analysis of the deposited data

Results flagged for a closer look

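In 8 of 162 groups of 4 livers examined, 1 liver stood apart from the other 3 by Dixon's criterion, which chance alone flags in about 1 group in 20, here 8.1 groups. None of these was a member of the NK and cytotoxic set or the members' sum. Of the 8, 4 concerned Smo-KO 3. It had 71.6 CPM of Socs2 against 11.0 to 13.7 CPM in the other Smo-KO livers, 177 CPM of Igtp against 88.2 to 98.3 CPM, 155 CPM of Nectin2 against 123 to 128 CPM, and a summed level of dendritic cell genes of 81.7 CPM against 62.6 to 65.2 CPM. In control livers, B2m was at 1928 CPM in control 3 against 2048 to 2067 CPM, Id2 at 232 CPM in control 1 against 192 to 199 CPM, Itga2 at 3.46 CPM in control 2 against 1.58 to 1.79 CPM, and Cd8a at 11.0 CPM in control 1 against 9.44 to 9.54 CPM. The log2 fold change of Socs2 was 0.66 without Smo-KO 3 by edgeR, against 1.78 with it, and that of Itga2 was −0.58 without control 2, against −0.93.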

How the results depend on the processing

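Directions held for every member under every alternative that gave a value, except that Klrk1 had a log2 fold change of 0.0054 without control 3 (range −0.40 to 0.0054 over left-out mice). Genes that passed an adjusted p of 0.05 numbered 0 in edgeR, 163 in DESeq2 (of 11967 with an adjusted p) and 61 without a filter, and 0 to 78 when 1 mouse was left out, 78 without Smo-KO 1, 5 without control 1 and 4 without Smo-KO 3. The cause was not tested. Members with an adjusted p under 0.05 numbered 2 in DESeq2, 1 without a filter and 0 in each other fit. Genes of the other lists passed in these 2 fits too. For Ciita, Cxcl9, Themis, Cd8a and Igtp, DESeq2's adjusted p was 0.00536, 0.0433, 0.000271, 0.0144 and 0.0508. Without a filter, edgeR's adjusted p for these genes was 0.0388, 0.0203, 0.0183, 0.0535 and 0.0227. DESeq2's adjusted p was also under 0.05 for Trem2 (0.000156), Socs1 (0.0091), Tigit (0.0268), Il18bp (0.0351) and Cd3e (0.0399). Among these, only Trem2 had an edgeR adjusted p under 0.05 without a filter (0.0182). Il2rb had −1.24 in DESeq2 (adjusted p = 0.000362) and −1.25 without a filter (edgeR adjusted p = 0.0199), with edgeR adjusted p-values of 0.0631 to 0.219 over left-out mice, and Nkg7 had −0.93 in DESeq2 (adjusted p = 0.0121). DESeq2 gave no adjusted p for Prf1. Smo had −0.87 in DESeq2 (adjusted p = 0.00613), −0.88 without a filter (edgeR adjusted p = 0.0385) and −0.997 to −0.81 over left-out mice, with an edgeR adjusted p of 0.0266 without Smo-KO 1. Of the 6 members tested, 3 or 4 had an unadjusted p under 0.05 in each fit, Il2rb, Nkg7 and Eomes in every one, all lower, where between 5.07% and 8.88% of all genes in a fit were lower at that threshold. Gzma entered only without a filter, and Tbx21 there and without control 4, Smo-KO 1, Smo-KO 2 or Smo-KO 3. In those fits with a mouse left out, Tbx21 passed the filter only through control livers, where it was higher. No conclusion is therefore drawn from its calls there. Of the T cell genes 12 to 18 were lower, and of the interferon gamma response genes 13 or 14. Of the members not tested, the log2 ratio of means was −0.86 for Gzma without Smo-KO 2, and −0.21 without control 3 and −2.08 without Smo-KO 3 for Ifng.

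Mice with the same number in both groups deviated from their group means with correlations of 0.104, 0.187, 0.0611 and 0.113, not all over 0.1, and control 1 correlated best with Smo-KO 4 (0.158), so the numbers were not taken as a pairing. With the replicate number as a block, 8 genes had an edgeR adjusted p under 0.05, none of them a member, and 3 members were lower at an unadjusted p under 0.05, as were 8.45% of all genes in that fit. At this depth the 95% counting interval of the pooled ratio reached 1 for Gzma, Ncr1, Ifng and Klrk1.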

Other observations

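Beside Il18r1, several genes of NK cells and killer T cells lay below the filter. They were named after their values were seen. Xcl1, the chemokine with which NK cells call dendritic cells, had 2, 6, 8 and 11 reads in control livers and 2, 2, 4 and 1 in Smo-KO livers (exact permutation test on CPM, two-sided p = 0.0571, n = 4 each). Cd160, a receptor of NK cells, ILC1 and CD8 T cells, had 13, 9, 11 and 14 reads in control and 8, 7, 8 and 6 in Smo-KO livers (exact permutation test, two-sided p = 0.0571). Cd96, a receptor of Pvr, had 8, 9, 6 and 13 reads in control and 3, 8, 3 and 3 in Smo-KO livers (exact permutation test, two-sided p = 0.0571). In each of the 3 the ranges of the groups met. Gzmm, a granzyme of NK cells, had 4, 2, 4 and 2 reads in control and 5, 2, 4 and 5 in Smo-KO livers, and Gzmk, a granzyme of memory T cells, 3, 1, 3 and 5 against 2, 2, 5 and 0, so neither was detectably different at this depth. Fasl, the death ligand that NK cells and killer T cells present, had 7, 19, 3 and 8 reads in control and 9, 6, 12 and 6 in Smo-KO livers, with overlapping ranges.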
